A study of Drosophila melanogaster with 2 samples.

Results

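The regions described here are the binding peaks of a CG10321-eGFP fusion protein that lay at promoters shared by a pair of divergent protein-coding genes. A peak was a member when its summit lay within 500 bp of the nearest protein-coding transcription start site and when a different protein-coding gene, on the opposite strand, started 0 to 1000 bp upstream of that site. Of 3006 peaks on the main chromosome arms in the conservative list of both replicates, 436 met this rule (14.5%, Wilson 95% interval 13.3 to 15.8). A further 874 peaks (29.1%) had a summit within 500 bp of a coding start with no such partner. They are called stand-alone promoter peaks and stand beside the members throughout.

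Chromatin immunoprecipitation sequencing was done on whole Drosophila melanogaster embryos aged 0 to 24 h, from strain CG10321-GFP, whose insertion targets CG10321, with an antibody against GFP. There was 1 group with 2 biological replicates, so every cell of the embryo and every embryonic stage is mixed in each library. No library without the fusion protein was analysed here. Peaks are compared by counts, medians and each replicate's own list, with no test between conditions.

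In a head-to-head arrangement, 2 genes point away from each other and their start sites share one short stretch of upstream DNA. Such pairs are common in the compact fly genome and often hold genes that most cells use, such as those for ribosomes, mitochondria and chromatin. A protein bound in the shared stretch is close to both starts, and its position alone does not say which gene, if either, it acts on.

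The windows below show the DNA under the strongest members that were in both replicate lists and whose DNA within 50 bp of the summit lay wholly between the 2 starts and outside annotated exons, on the arms 2L, 3L, 3R and X. Of 85 windows of this kind, the 8 of highest signal are given, followed by 1 with the site of the factor DREF. Sequences are from the RefSeq copy of the dm6 assembly, plus strand, 5′ to 3′. Capitals mark any match, on either strand, to the 12 sequence patterns searched, which are spelled out or named with the motif counts.
CG12974/pzg, chr3L:21285997-21286097: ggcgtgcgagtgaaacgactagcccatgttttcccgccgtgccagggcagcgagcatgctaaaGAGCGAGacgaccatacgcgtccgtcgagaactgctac
Wsck/atl, chr3R:24630159-24630259: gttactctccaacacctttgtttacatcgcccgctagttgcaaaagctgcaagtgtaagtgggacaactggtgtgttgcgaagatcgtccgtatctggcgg
fs(1)h/mys, chrX:8061034-8061134: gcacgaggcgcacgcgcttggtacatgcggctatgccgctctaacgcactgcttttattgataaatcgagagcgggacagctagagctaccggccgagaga
wcy/CG4949, chrX:17077899-17077999: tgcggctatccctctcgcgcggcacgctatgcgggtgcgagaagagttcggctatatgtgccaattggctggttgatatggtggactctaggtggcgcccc
Hsp68/SMC1, chr3R:24057372-24057472: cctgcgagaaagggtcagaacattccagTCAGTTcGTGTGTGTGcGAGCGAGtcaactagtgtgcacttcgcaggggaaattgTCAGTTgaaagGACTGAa
Art3/mRpS10, chr3R:15229485-15229585: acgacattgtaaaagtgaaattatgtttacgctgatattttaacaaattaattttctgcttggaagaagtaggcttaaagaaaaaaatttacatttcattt
mRpS23/CenG1A, chr2L:13835404-13835504: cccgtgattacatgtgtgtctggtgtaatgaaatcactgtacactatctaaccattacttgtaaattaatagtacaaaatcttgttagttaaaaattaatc
Pp1-87B/NANS, chr3R:12426144-12426244: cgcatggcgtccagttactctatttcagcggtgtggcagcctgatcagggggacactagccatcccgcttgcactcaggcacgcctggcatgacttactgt
RpL28/eIF1, chr3L:3222987-3223087: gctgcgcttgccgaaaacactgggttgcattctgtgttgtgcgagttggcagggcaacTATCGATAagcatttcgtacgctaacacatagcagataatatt

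These windows already show the range of base composition among the members. G and C made up 60.4% of the window at CG12974/pzg and 24.8% of the window at Art3/mRpS10. The first 5 windows had G and C shares from 50.5% to 60.4% and member signals from 1515 to 2575. The Art3/mRpS10 and mRpS23/CenG1A windows, at 24.8% and 29.7%, had signals of 551 and 544.

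Peak strength is given as the signal value that the authors' caller assigned, in a unit that no label or file names. Groups of peaks are therefore compared within a list. Where signals of the 2 replicates stand together or form a ratio, a shared unit is not known. Member signals had a median of 102 (quartiles 74.8 and 177, range 2.12 to 2691), against a median of 111 at stand-alone promoter peaks and 100 over all peaks. The middle of the members thus lay close to that of all peaks. At the top, 18 members (4.13%) had a signal of 1000 or more, against 80 stand-alone promoter peaks (9.15%), and against 5.62% of all peaks. Of the 100 strongest peaks, 9 were members and 51 were stand-alone. At the other end, 18 members had a signal below 50.

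The strongest member, with a signal of 2691, had its summit at chr3R:14740855, 64 bp upstream of the start of eff, a ubiquitin-conjugating enzyme, and 727 bp from the start of jvl, which encodes a protein associated with microtubules. The matching peak had a signal of 1706 in replicate 1 and 995 in replicate 2. At AGO1/mRpL53 the signal was 2628, with 1563 in replicate 1 and 1093 in replicate 2. AGO1 encodes the Argonaute protein that carries microRNAs, and mRpL53 a mitochondrial ribosomal protein. The starts of this pair were 170 bp apart, and the summit lay 82 bp from one and 88 bp from the other. These 2 peaks were each in both replicate lists.

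The CG12974/pzg member had a signal of 2575, with 1491 in replicate 1 and 1064 in replicate 2, and its summit lay 52 bp upstream of pzg, which encodes a chromatin protein. Wsck/atl had 2468, with 1289 in replicate 1 and 1183 in replicate 2, and atl encodes atlastin, a GTPase that fuses membranes of the endoplasmic reticulum. At fs(1)h/mys the signal was 2441, with 1467 in replicate 1 and 1010 in replicate 2. The fs(1)h gene encodes a BET bromodomain protein and mys a beta integrin. All 5 of these strongest members had their summit between the 2 starts.

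The next members were CG17574/bic at 2006, Rab5/Axud1 at 1830 and wcy/CG4949 at 1629. The bic gene encodes a subunit of the nascent polypeptide-associated complex, and Rab5 a GTPase of early endosomes. Hsp68/SMC1 had a signal of 1515, with 840 in replicate 1 and 682 in replicate 2. Hsp68 is a heat shock chaperone and SMC1 a cohesin subunit. At tefu/Hsc70-4 the signal was 1467, with 839 in replicate 1 and 622 in replicate 2. The tefu gene encodes the ATM kinase of the DNA damage response, and Hsc70-4 a constitutive chaperone whose start lay 455 bp upstream of the summit. Hence the summit at tefu/Hsc70-4 lay on the gene side of Hsc70-4 and not in the shared stretch.

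The other 10 of the 20 strongest members in both replicate lists had signals from 935 to 1319. They included Not1/Nt5c at 1220, beside the scaffold gene of the CCR4-NOT deadenylase complex, and Cpsf160/Asx at 1172, with an mRNA 3′ end processing factor and a Polycomb group gene. IntS6/Rtel1 had 1093, with a subunit of the Integrator complex and a DNA helicase. Patronin/eIF3b had 1067, with a protein of microtubule minus ends and a translation initiation factor. Ythdc1/CG12010 had 1022, and Ythdc1 encodes a reader of methylated adenosine in RNA. Of these 20 members, 13 had their summit between the starts and 4 were on X.

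The annotation held 2667 head-to-head pairs, formed by 5052 of 13968 protein-coding genes (36.2%). Of the pairs, 408 had a member peak (15.3%, 14 to 16.7). The 2 replicates' own lists gave shares of 10.9% (replicate 1) and 10.7% (replicate 2). Most pairs with a member had 1 such peak (381 pairs), 26 pairs had 2, and 1 pair had 3. The member pairs held 811 genes, and 426 genes were nearest to a member summit.

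A summit within 500 bp of a start was found at 834 of the 5052 head-to-head genes (16.5%, 15.5 to 17.6) and at 691 of the 8916 stand-alone genes (7.75%, 7.21 to 8.32), against 10.9% of all coding genes. The replicate 1 list gave 11.8% for head-to-head and 5.72% for stand-alone genes, and the replicate 2 list 12% and 6.0%. The order was the same in both replicates. One summit in a shared stretch counts for both genes of a pair, which raises the share per gene. Counted per length instead, the windows of 500 bp to either side of the start sites held 124 summits per Mb at head-to-head starts and 74.2 per Mb at stand-alone starts. The replicate 1 list gave 90.0 and 52.1 summits per Mb at head-to-head and stand-alone starts, and the replicate 2 list 89.7 and 56.0. Thus more summits lay per Mb at head-to-head starts in each list; this difference has no test.

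Most member summits lay in the stretch shared by the 2 genes. Of the 436 summits, 291 lay between the starts (66.7%, 62.2 to 71.0), with 67.3% for replicate 1 and 70.4% for replicate 2 by their own lists. The other 145 lay on the gene side of a start. Upstream of the nearest start lay 289 member summits (66.3%) and 655 stand-alone summits (74.9%). By the replicate 1 list these shares were 66.7% and 77.2%, and by the replicate 2 list 70.1% and 80.6%. A summit upstream of its nearest start was thus not particular to the members. Both starts lay within 500 bp of the summit for 321 members (73.6%). The called peak covered both starts at 100 members (22.9%) and neither start at 117. The summit was nearest to the minus-strand start at 212 members and to the plus-strand start at 224, so neither side prevailed.

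**Figure D1:**
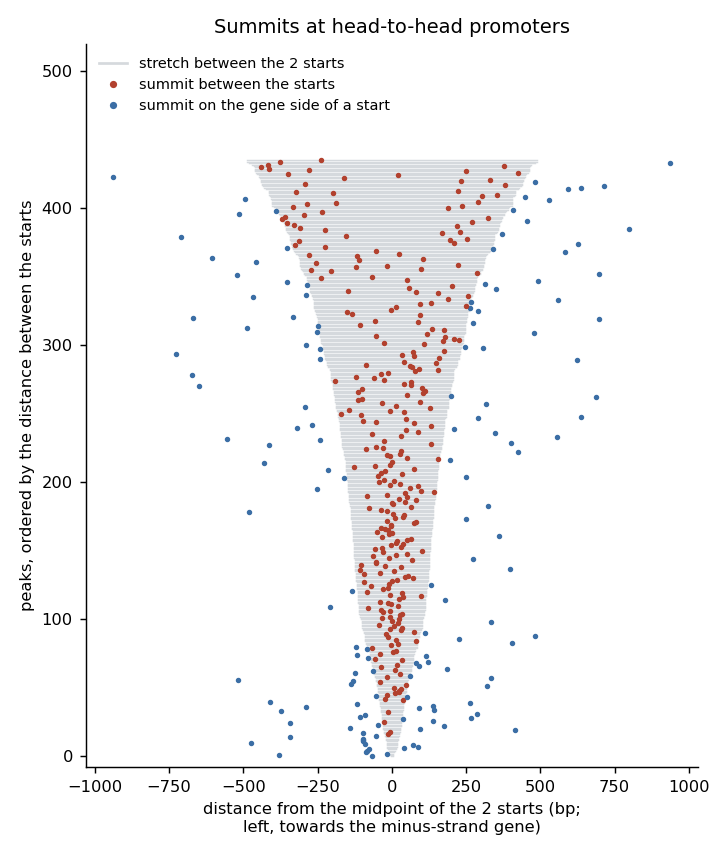
Each row is 1 of the 436 peaks at head-to-head promoters, ordered from the closest starts (bottom) to the widest, with the summit (point) placed by its distance in bp from the midpoint of the 2 starts and the grey bar marking the stretch between them. Of the summits, 291 lie on the grey bar and 145 beyond one of its ends.

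Summits lay closer to a start at head-to-head promoters than at stand-alone ones. The median distance from the summit to the nearest start was 95 bp for members and 160 bp for stand-alone promoter peaks. In the replicate 1 list it was 80 bp for members and 154 bp for stand-alone peaks, and the replicate 2 list had 103 and 173 bp. From 100 to 1 bp upstream of the nearest start lay 35.8% of member summits and 19.2% of stand-alone summits. In the next 100 bp upstream lay 25.9% of member and 29.9% of stand-alone summits. Farther than 300 bp upstream lay 1 member, where a summit would often be nearer to the partner's start. The rule thus limits how far upstream a member summit can lie, and the 2 groups were not tested against each other. The summit fell in an annotated exon for 160 members (36.7%, 32.3 to 41.3), against 233 stand-alone promoter peaks (26.7%, 23.8 to 29.7). For members with the summit between the starts the count was 40 of 291, and for those on the gene side 120 of 145.

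**Figure D2:**
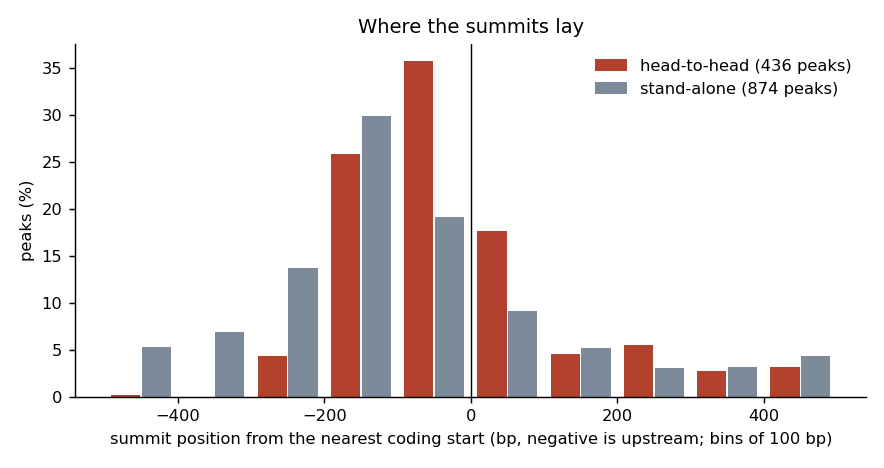
Share of peaks (%) by the position of the summit relative to the nearest coding start, in bins of 100 bp, for head-to-head members (red, 436 peaks) and stand-alone promoter peaks (grey, 874 peaks). The tallest member bar is the 100 bp just upstream of the start, at 35.8%, where stand-alone peaks have 19.2%.

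The 2 starts of a member's promoter were a median of 313 bp apart (quartiles 221 and 519, range 6 to 977), by the start nearest to the summit. Measured by the closest starts of each pair, the median was 288 bp for pairs with a member and 304 bp for pairs without one. Pairs were also classed by their closest starts, although the member could lie at wider starts of the same pair. Those 201 to 300 bp apart had a member in 103 of 542 cases (19.0%, 15.9 to 22.5). This was the highest share of 6 spacing classes in the conservative and replicate lists. Pairs with starts 701 to 1000 bp apart had one in 36 of 310 cases (11.6%, 8.51 to 15.7), and the intervals of these classes do not overlap. The share did not fall steadily with distance, since pairs at most 100 bp apart had a member in 17% of cases and those in the next class, up to 200 bp apart, in 11.5% (8.60 to 15.3). In the 201 to 300 bp class the replicate 1 list had 12.7% and the replicate 2 list 15.5%. In the 701 to 1000 bp class it was 6.77% and 8.39%.

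Spacing, here from the start nearest to the summit to its partner, also went with where the summit lay. Among members whose starts were 201 to 300 bp apart, 95 of 107 summits were between the starts (88.8%, 81.4 to 93.5). Among those with starts at most 100 bp apart, 13 of 54 were (24.1%, 14.6 to 36.9). In the class between these, up to 200 bp apart, 53.7% were. In the classes beyond 300 bp the shares were 68.9%, 64.5% and 73.6%, in order of spacing. A shorter stretch leaves less room for a summit, but the share did not rise steadily with spacing. Whether room accounts for these shares was not tested. Where the starts were 300 bp or more apart and the summit lay between them, 51 of 161 summits (31.7%, 25 to 39.2) were in the central one of 3 equal parts of the stretch. The closest starts among members were those of CG3032/CG4593, 6 bp apart, with a signal of 90.9, and the widest were 977 bp apart, at Hsp68/SMC1 and Pax/Lectin-galC1.

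**Figure D3:**
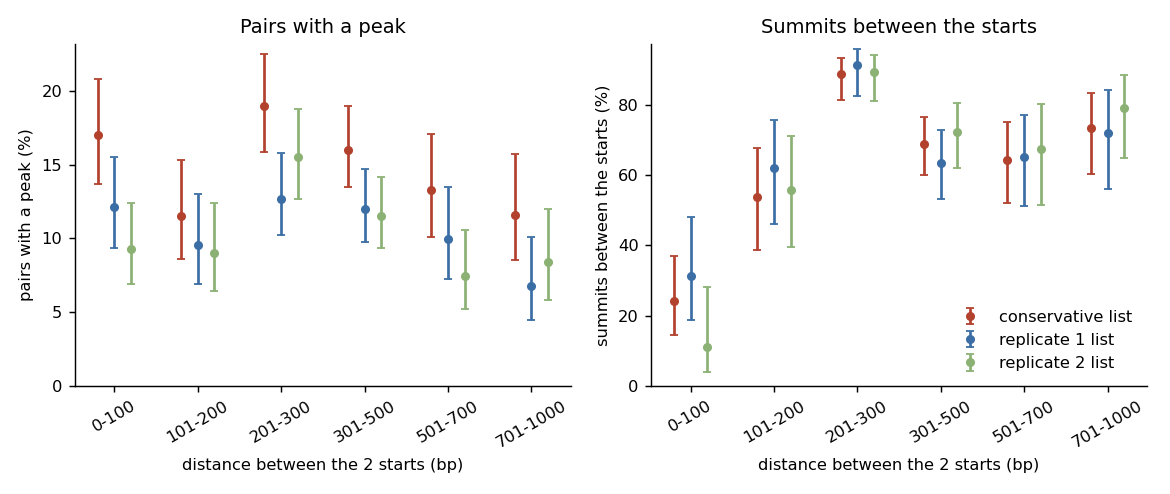
Left, share of head-to-head gene pairs with a peak (%), and right, share of member summits between the starts (%), by the distance between the starts in bp, in the conservative list and in each replicate's list, with Wilson 95% intervals. Distances on the left are between the closest starts of each pair. Those on the right run from the start nearest to the summit to its partner. In the conservative list the 201 to 300 bp class is highest in both panels, at 19.0% and 88.8%.

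The limits of the rule cut through a continuous range. Just inside the limit of 500 bp was the wde/CG12935 peak, 498 bp from the start and with a signal of 170, and just outside was Ski6/CG16812, at 507 bp and with a signal of 57.1. Just outside the limit of 1000 bp between starts was mRpS21/Droj2, at 1013 bp and with a signal of 69.2. Among pairs with several members, eff/jvl had a second peak of signal 94.2 on the gene side of jvl. CG17574/bic had peaks of 2006 and 271, both in the stretch between the starts, and Rab5/Axud1 had peaks of 1830 and 72.1. In other pairs the further peak was very weak, as at CG42260/blw with 76.7 and 2.12 and at glo/COX5A with 62.5 and 3.47. The pair with 3 peaks was CG14757/LRP1, with signals of 94.8, 34.2 and 4.03.

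A peak of both replicate lists overlapped 202 members by at least 1 bp (46.3%, 41.7 to 51.0), against 440 stand-alone promoter peaks (50.3%, 47.0 to 53.6) and 45.8% of all peaks. The members' share was near that of all peaks. The replicate 1 list overlapped 263 members (60.3%), against 58.7% of all peaks, and the replicate 2 list 274 (62.8%), against 61.5%. Neither list overlapped 23.2% of the members, against 25.6% of all peaks. Members in both lists had a median signal of 188, and members in neither had 65.0.

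All 32 members with a signal of 500 or more were in both lists, as were all peaks of that strength. From 250 to below 500, 41 of 42 members were in both, against 99.6% of all peaks. The exception among the members was eIF4EHP/CG18428, with a signal of 332. The ranked lists held a peak there with a signal of 96.2 in replicate 1 and 229 in replicate 2, and yet neither thresholded replicate list had one. The gene eIF4EHP encodes a cap-binding repressor of translation. The next strongest members absent from both lists were cm/sloth1 at 100, Cht11/CG4558 at 93.9, Vps36/Liprin-beta at 92.5 and app/CG32100 at 91.6. At a signal of 50 to below 100, 9 of 194 members (4.64%) were in both lists, against 6.68% of all peaks, so weak peaks were seldom in both whether or not they were members. Across 431 members with a ranked peak in each replicate, Spearman's rho of the 2 signals was 0.699, given as a description because the members share the same 2 libraries.

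Base composition split the members, and the replicates weighted the resulting classes differently. Windows of 50 bp to each side of member summits had 38 ± 12.7% G and C (SD over 436 windows), against 44.3 ± 12.8% at stand-alone promoter peaks (SD over 874 windows) and 43.2 ± 12.3% over all peaks. Summits between the starts averaged 34.6%, and those on the gene side 44.7%. The midpoints of head-to-head pairs without a member averaged 33.6%, so low G and C in the shared stretch is a feature of such pairs with or without a peak.

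Of the members, 146 had a window with less than 30% G and C (33.5%, 29.2 to 38), and 96 had 50% or more (22.0%, 18.4 to 26.1). Among the members under 30%, 82 were overlapped by the replicate 1 list (56.2%) and 110 by the replicate 2 list (75.3%). Among those at 50% or more the order was the other way, with 69 in replicate 1 (71.9%) and 55 in replicate 2 (57.3%). The same was seen when each replicate's own list was classified. Windows under 30% made up 26.7% of members by the replicate 1 list (22.1 to 31.8) and 44.3% of those by the list of replicate 2 (38.9 to 49.8).

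The signals followed suit. When the members were ranked by signal among themselves in each replicate, 41 of 145 with under 30% G and C stood higher in replicate 1, and 68 of 96 with 50% or more did. Among members with a signal of 250 or more, the ratio of the replicate 1 to the replicate 2 signal had a median of 0.703 (range 0.407 to 1.30) for 30 peaks under 40% G and C. It had a median of 1.47 (range 0.650 to 1.96) for 44 peaks at 40% or more. The unit of neither replicate is named, so the 2 medians are set only beside each other. The effect of a difference in scale between the replicates was not tested. This pattern was not confined to the members, since 108 of 581 peaks under 30% and 693 of 1037 at 50% or more stood higher in replicate 1 over all peaks. Of the 18 members with a signal of 1000 or more, 16 had windows with 50% or more and none had under 40%. This too was not confined to the members. Of all peaks of that strength, 140 of 169 had windows with 50% or more, and of stand-alone promoter peaks 67 of 80 did. Whether the difference between the libraries is technical was not tested. The classes of base composition were set after the values were seen.

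**Figure D4:**
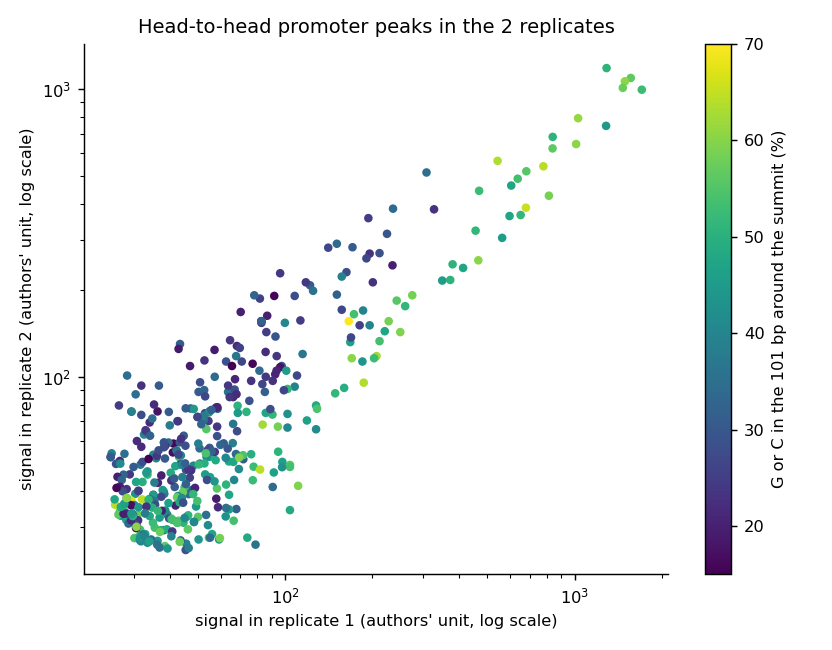
Signal of each of 431 members in replicate 1 (horizontal) and replicate 2 (vertical), both on log axes in the authors' unit, coloured by the share of G and C (%) in the window around the summit. Above a signal of about 100, peaks with little G and C lie above those rich in G and C, which is the difference between the ratios of 0.703 and 1.47.

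The sequence patterns were searched on both strands of the window of 50 bp to each side of each summit, and the same length was taken at other sites for comparison. GAGAGAG, the word of GAGA factor and CLAMP, was in 14 member windows (3.21%, 1.92 to 5.32), in 106 stand-alone windows (12.1%, 10.1 to 14.5) and in 11.6% of all peak windows. Of the members by the replicate 1 list 4.44% had it, and of those by the replicate 2 list 2.55%, where stand-alone peaks had 15% and 11.1%. Windows of this length just upstream of all coding start sites held it in 3.49% of cases, and the midpoints of pairs without a member in 1.37%. With the starts of a pair limited to 500 or 300 bp apart, the members' share was 0.935% or 1.49%. Of the 20 strongest members, 4 had the word.

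A related word, GAGCGAG, was picked out after the words in the member windows had been counted, so its counts are a description. It was in 29 member windows (6.65%, 4.67 to 9.39), 132 stand-alone windows (15.1%, 12.9 to 17.6) and 14.2% of all peak windows, but in 0.575% of midpoints of pairs without a member and 2.15% of all promoters. Of the 20 strongest members, 10 held it, among them eff/jvl, AGO1/mRpL53, CG12974/pzg and Hsp68/SMC1, and it stands in capitals in the pzg and Hsp68 windows above. Members with the word had a median signal of 257, and members without it 99. Both replicate lists overlapped 25 of the 29 (86.2%) and 177 of the 407 others (43.5%). Stronger members were in both lists more often, and these shares were not compared at equal signal. Among members with a signal of 250 or more, 15 of 44 windows at 40% or more G and C had it and 0 of 30 under 40% did. The word itself is rich in G and C, and the part of base composition in these counts was not tested.

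TATCGATA, the site of DREF, a factor named for the replication genes it binds, was in 13 member windows (2.98%, 1.75 to 5.03), 11 stand-alone windows (1.26%, 0.704 to 2.24) and 0.898% of all peak windows. Of the members by the replicate 1 list 5.40% had it, and of those by the list of replicate 2 it was 2.55%, where stand-alone peaks had 2.12% and 0.606%. All promoters had it in 5.20% of cases and the midpoints of pairs without a member in 5.18%, and the interval of the members overlapped that of the midpoints (4.34 to 6.17). Of the 13 members with this word, 7 were beside a cytoplasmic ribosomal protein gene, such as RpL28/eIF1 with a signal of 152. CGATA, the core bound by the insulator protein BEAF-32, which also lies inside TATCGATA, was in 71 member windows (16.3%), against 14.8% of stand-alone and 13.8% of all peak windows, and 24.3% of midpoints of pairs without a member.

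TATAAA was in 91 member windows (20.9%, 17.3 to 24.9), 118 stand-alone windows (13.5%, 11.4 to 15.9) and 13.0% of all peak windows. The midpoints of pairs without a member had it in 22.2% of cases and all promoters in 18.2%. TAATTA, a core of homeodomain sites, was in 39 member windows (8.94%), against 5.49% of stand-alone and 5.66% of all peak windows, and 11.2% of midpoints without a member. Both words are made of A and T alone, and the member windows held more A and T. Whether base composition accounts for these shares was not tested. CACACAC was in 17 member windows (3.90%), against 7.55% of stand-alone and 7.05% of all peak windows. All promoters had it in 3.30% of cases, and the midpoints of pairs without a member in 0.974%. The core promoter pattern called Ohler motif 6 was in 9 member windows (2.06%, 1.09 to 3.88) and 0.299% of all peak windows. None of the 874 stand-alone windows had it (Wilson upper limit 0.438%). All 9 members had the summit between the starts. All promoters had the pattern in 1.25% of cases, and the midpoints of pairs without a member in 0.974%. Each replicate's own list had it in 4 member windows (1.27%) and in no stand-alone window. Members and all peaks had GGTCACAC in 2.06% and 0.798% of windows, CAGCTG in 7.11% and 5.99%, Ohler motif 7 in 4.13% and 2.30%, and the initiator TCAGTT or TCAGTC in 5.96% and 7.78%. In the same order, stand-alone peaks had 1.26%, 6.86%, 3.32% and 9.38%, and all promoters 2.63%, 7.63%, 4.08% and 12.9%.

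Genes for the cytoplasmic ribosome had the highest share with a member among the lists searched. Of 56 such genes in a head-to-head pair, 33 were in a pair with a member (58.9%, 45.9 to 70.8), against 16.1% of all head-to-head genes. Of the 37 ribosomal protein genes without a head-to-head partner, 12 had a summit within 500 bp of a start (32.4%). Over all stand-alone genes that share was 7.75%, so a raised share was not particular to the head-to-head ribosomal genes. The 2 measures differ, since the head-to-head share counts a member anywhere in the gene's pair. At the 35 members of these pairs the ribosomal gene was the nearest one in 31 cases, and the median distance from the summit to its start was 35 bp. These 35 peaks were of moderate strength, with a median signal of 106 and a range of 49.7 to 288.

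Ripalpha/RpL7 had the highest signal of them, 288, with 170 in replicate 1 and 116 in replicate 2. RpS27/Nup37 had 255, with 160 in replicate 1 and 91.5 in replicate 2, and its summit lay 10 bp inside RpS27. Nelf-E/RpL14 had 190, with 128 in replicate 1 and 65.7 in replicate 2. RpL7 and RpL14 encode proteins of the large ribosomal subunit and RpS27 one of the small subunit. The peak of Dref/RpL13, with a signal of 115, lay between RpL13 and the gene for DREF itself.

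The replicates differed at these genes. The replicate 1 list overlapped 31 of the 35 members and the replicate 2 list 17, with 16 in replicate 1 alone and 2 in replicate 2 alone. Ranked among 431 members in each replicate, 32 of 34 stood higher in replicate 1, where their median rank was 160, against 270 in replicate 2. Their windows had 46.0 ± 9.25% G and C (SD over 35 windows), which is above the mean of the members. Whether base composition accounts for the difference between replicates at these genes was not tested.

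**Figure D5:**
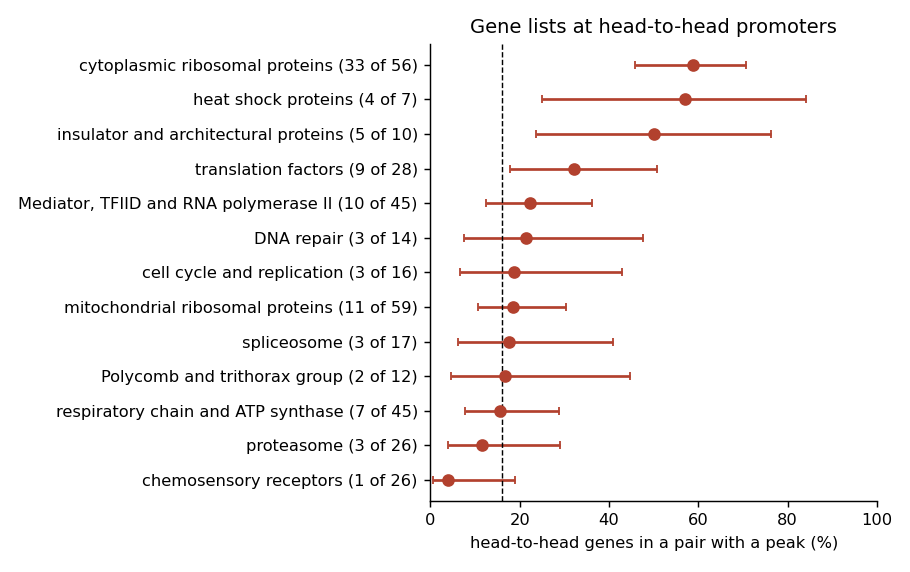
Share of the head-to-head genes of each list that were in a pair with a peak (%), with Wilson 95% intervals and the counts in brackets, for the 13 lists with at least 5 head-to-head genes. The dashed line marks the 16.1% of all head-to-head genes, and the cytoplasmic ribosomal proteins lie farthest to its right, at 58.9%.

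Of the 7 head-to-head heat shock genes, 4 were in a pair with a member (57.1%, 25 to 84.2). They were led by Hsp68 at 1515 and Hsc70-4 at 1467, and Hsp83, the fly HSP90 chaperone, had a signal of 182 at CG14965/Hsp83. Of 10 genes for insulator and architectural proteins, 5 were in such a pair (Wilson interval 23.7% to 76.3%). Besides pzg they included Chro, a chromodomain protein of interbands, at 444 in Chro/Ssl1, and su(Hw), an insulator protein, at 367 in su(Hw)/Polr2I. Of 28 translation factor genes, 9 were in a member pair (32.1%, 17.9 to 50.7), and 5 were the nearest gene of a member. The strongest peaks of these pairs were Patronin/eIF3b at 1067 and Ugalt/eIF2Bbeta at 817. Both summits were nearer to the partner gene. They lay 71 bp from the start of Patronin and 635 bp from that of eIF3b, and 30 bp from Ugalt and 689 bp from eIF2Bbeta.

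The remaining lists had intervals that held the 16.1% of all head-to-head genes. Mitochondrial ribosomal protein genes were in a member pair in 11 of 59 cases (18.6%, 10.7 to 30.4), and at 3 of the 11 the ribosomal gene was the nearest one. Genes of Mediator, TFIID and RNA polymerase II were so in 10 of 45 cases (22.2%), those of the respiratory chain and ATP synthase in 7 of 45 (15.6%), and those of the proteasome in 3 of 26 (11.5%). DNA repair genes were so in 3 of 14 cases, cell cycle and replication genes in 3 of 16, spliceosome genes in 3 of 17, Polycomb and trithorax group genes in 2 of 12, and chemosensory receptor genes in 1 of 26. Examples were brm, the ATPase of a SWI/SNF complex, at 288 in brm/Arl1, and dup, the replication licensing factor Cdt1, at 624 in dup/SRPK. Of 39 Hox and embryonic patterning genes 1 was head-to-head and had no member. A summit near a start was found at 22 of the 38 others (57.9%), against 7.75% of all stand-alone genes.

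Members were few on the X chromosome. It held 45 of the 436 (10.3%, 7.80 to 13.5), against 179 of 874 stand-alone promoter peaks (20.5%) and 600 of 3006 peaks in all. X had 15.1% of the head-to-head pairs, and 41 of its 403 pairs had a member (10.2%, 7.59 to 13.5). X held 12.1% of the members of the replicate 1 list and 10.2% of those of the replicate 2 list, where stand-alone promoter peaks had 22.3% and 21.1%. On 3L, 102 of 518 pairs had a member (19.7%, 16.5 to 23.3), the highest share of the arms. The shares were 15.1% on 2L, 16.0% on 2R and 14.8% on 3R, and none of the 11 pairs on arm 4 had one.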

How the data were processed

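The data were peak lists in dm6, per the deposited file lists, derived from the alignments of 2 replicates and further files shared by both. No label or file header names the aligner, the peak caller, their versions or the control. The signal per peak and the score, which ran from 830 to 1000 in the conservative list, are the authors' own deposited values, on a scale not given. The lists hold no read counts, so the depth of the libraries is unknown and the intervals cover only counting error. Of 3012 conservative peaks, 6 on unplaced sequences were left out, and 16 unnamed columns of the ranked lists were not used.

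Starts were the 5′ ends of all coding transcripts in Ensembl release 115. The closest divergent start of another gene within 1000 bp made a pair. Replicate values are those of the ranked peak of highest signal that shared at least 1 bp. Intervals of shares are Wilson 95% intervals. No test was run, since there was 1 group with 2 replicates, and peaks are not replicates. The labels number the replicates as biological, and the spread between them is given by each replicate's own list.

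The members, the 14 gene lists (10 names found no match) and the 11 motifs were chosen with earlier results of these data known, and GAGCGAG after the words had been counted. Named were the 20 strongest members in both replicate lists, up to 3 per gene list, those at the limits of the rule, the strongest pairs with several members and the 5 strongest members in neither list. Other examples were chosen after their values were seen. Sequences on arm 2R were not printed. Python 3.11.15, numpy 2.4.6 and SciPy 1.17.1 were used. Alternatives changed the list, the limits, the starts and the window.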

Additional observations from a re-analysis of the deposited data

How the results depend on the processing

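Of 86 values under 13 alternatives, 45 stayed within the spread between the replicate lists, within 1.5 times for the count of members, or within the Wilson interval for the share in both lists. The count of members was 314 to 315 in the single replicate lists, 224 in the more intense peaks (the upper 50% of the list) and 202 with starts within 300 bp.

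The share of pairs with a member was 10.7% to 10.9% with a replicate left out, 17.4% in the other thresholded list, 8.32% in the upper 50%, 13.3% and 17.1% with summits within 200 and 1000 bp, 14.7% with starts within 300 bp, 14.9% from the 5′-most starts and 18.1% with a partner of any start of the nearest gene. The last alternative was chosen after seeing the data. The share of head-to-head genes with a summit was, in the same order, 11.8% to 12%, 18.7%, 8.95%, 12.1% and 20.2%, then 18.1% with starts within 500 bp, 18.3% within 300 bp and 14.3% from the 5′-most starts, and stand-alone genes had the lower share each time. The median signal was 93.3 in the other list and 172 in the upper 50%, and the share in both lists was 41.2% and 85.7%.

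Summits between the starts made up 67.3% to 70.4% with a replicate left out, 71.0% in the upper 50%, 73.8% and 57.3% with summits within 200 and 1000 bp, 64.4% with starts within 300 bp, 57.3% from the 5′-most starts and 52.5% with a partner of any start. The median spacing was 310 to 318 bp with a replicate left out, 332 bp in the other list, 301 and 331 bp with summits within 200 and 1000 bp, 260 and 206 bp with starts within 500 and 300 bp, 302 bp from the 5′-most starts and 346 bp with any start. GAGAGAG was in 2.55% to 4.44% of members with a replicate left out, 0.935% and 1.49% with starts within 500 and 300 bp, and 4.87% with any start. Where a limit on spacing was lowered, the smaller spacing follows from it, and the cause of the other moves was not tested. No paired analysis was possible because there was 1 group and no test. Unknown depth limits what the lists can miss.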
